A study of Mus musculus with 6 samples.

Results

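The 10 genes described here encode the proteins with which a muscle fibre stores, releases and takes back calcium: the calcium pumps Atp2a1 and Atp2a2, the store proteins Casq1, Casq2 and Srl, the pump inhibitors Sln and Pln, the release channel Ryr1, its voltage sensor Cacna1s, and the cytosolic buffer Pvalb. They were chosen by name, with earlier results of these data known. All 10 were among the 52110 named lines of the table, and all 10 were among the 15797 genes that passed the filter on low counts. The 6 RNA libraries came from muscle of wild-type c57b6l mice, with 3 libraries in the group treated with click and 3 in the group treated with EDC. The labels do not say what either agent is, its dose or time, which muscle was taken, or the age and sex of the mice. Neither group is labelled untreated, so every direction is that of click relative to EDC. Nothing says that the mice were treated or sampled on separate days, and the p-values measure the spread between these libraries.

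In a resting muscle fibre, calcium is held in the sarcoplasmic reticulum by calsequestrin. A nerve impulse moves the voltage sensor in the membrane, which opens the ryanodine receptor, and the released calcium starts contraction until the pumps return it. Fast fibres use the pump encoded by Atp2a1, calsequestrin 1 and much parvalbumin. Slow fibres and heart use the pump encoded by Atp2a2, and calsequestrin 2 is the form of the heart and is also found in slow and developing fibres. Sarcolipin (Sln) and phospholamban (Pln) are small membrane proteins that bind the pumps and lower their activity. In mice, Sln is abundant in developing fibres and is low in most adult fast muscle, whereas Pln is found in heart, smooth muscle and, at a low level, slow fibres.

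Both inhibitors and the related pump regulator Mrln (myoregulin) are very short, and their entire coding sequences are shown because the 3 genes did not lie on the same side of the comparison. They are given 5′ to 3′ on the plus strand of mm10, from GENCODE M21 transcripts, with the start and stop codons in capitals. The Sln sequence has 31 codons before its stop and lies within 1 exon on chr9:53853473-53853568. That of Pln has 52 codons (chr10:53343864-53344022), and that of Mrln has 46 (chr10:70219496-70219636).
Sln: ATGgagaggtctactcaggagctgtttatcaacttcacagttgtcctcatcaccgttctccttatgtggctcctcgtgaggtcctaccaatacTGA
Pln: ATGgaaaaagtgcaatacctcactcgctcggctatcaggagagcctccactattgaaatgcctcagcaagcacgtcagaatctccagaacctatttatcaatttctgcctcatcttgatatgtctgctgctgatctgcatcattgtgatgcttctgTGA
Mrln: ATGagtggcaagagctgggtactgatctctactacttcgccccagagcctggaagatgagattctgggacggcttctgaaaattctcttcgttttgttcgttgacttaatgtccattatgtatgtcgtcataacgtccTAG

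The libraries held 34472421 to 39305779 reads. The 10 genes took 3.41% to 4.61% of the reads of a library. Mitochondrially encoded genes took 18.9% to 30.2% of the reads in click libraries and 14.8% to 17.8% in EDC libraries. Xist, transcribed in females, had reads in replicate 1 of both groups and 0 in the other libraries. The ratio of mt-Atp6 to Gm10925 reads fell into a high class of 0.927 to 0.937 (EDC replicates 1 and 3, click replicate 2) and a low class of 0.162 to 0.166. As a check of the tissue, 9 fast fibre contractile genes summed to 68862 to 150861 CPM, counts scaled to 1000000 reads of a library with TMM factors. Among heart markers, Nkx2-5 and Nppb had 0 reads in every library, Nppa and Myl7 had at most 6, and the heart release channel Ryr2 had at most 11. The other 3 of the 7 heart markers had more reads, 20 to 738 for Myh6, 187 to 3611 for Tnnt2 and 11 to 62 for Tnni3. In whole muscle, fewer fibres of a type and less RNA per fibre cannot be told apart.

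Levels of the members are in the same CPM, and differences are log2 fold changes of click over EDC from edgeR's quasi-likelihood test, with p-values adjusted by Benjamini-Hochberg over all 15797 genes. That test called 1 gene in the whole table, or 0.00633% of those tested, and 0 of the 10 calcium genes. At an unadjusted edgeR p under 0.05 there were 2 of the 10, Atp2a2 on the higher side in click and Sln on the lower, where 15.2% of all genes met that limit (7.22% higher and 8% lower). In CPM with TMM factors the groups were fully apart in 3 of the 10, Atp2a2 and Pln higher in click and Sln lower. By that measure 22.2% of all genes were apart (9.84% higher and 12.4% lower). With library totals only Sln of these 3 genes stayed apart. Of the 10 genes, 8 had a positive log2 fold change, with a median of 0.46 over the 10; with library totals in place of TMM factors 4 of the 10 were positive. DESeq2 called Sln and Atp2a2, and called 3.83% of all genes. Limma-voom called 0 genes in the table, with 2602 at an unadjusted p under 0.05.

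**Figure D1:**
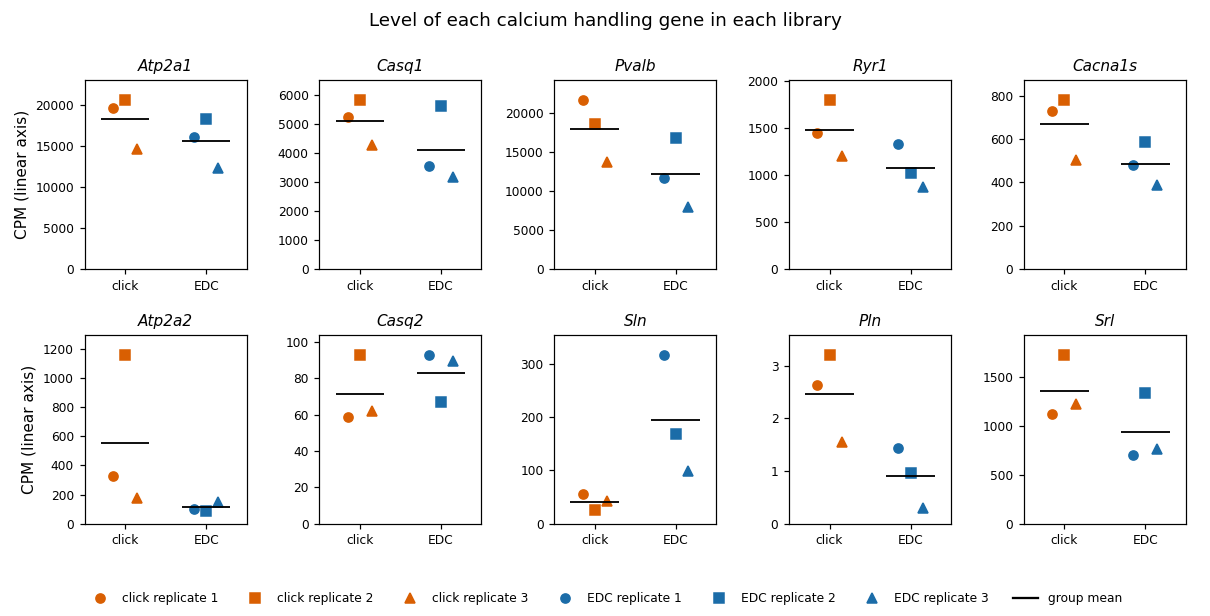
Level of each of the 10 genes in each library, in CPM on linear axes that start at 0, with a marker for each library and a line at the group mean. Sln is below every EDC library in all 3 click libraries, Atp2a2 and Pln are above, and the other 7 genes overlap between the groups.

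Sarcolipin, the inhibitor of both pumps, was the member with the smallest unadjusted p. Its level was 55.2, 25.0 and 42.0 CPM in click replicates 1, 2 and 3. It was 316, 168 and 98.6 CPM in EDC replicates 1, 2 and 3. All 3 click libraries were thus below the lowest EDC library, and EDC replicate 1 stood well above the other EDC libraries. Means were 40.7 ± 15.2 CPM for click and 195 ± 111 CPM for EDC (SD, n = 3), or 4.78-fold more in EDC. The log2 fold change was -2.26 with an SE of 0.49 (edgeR adjusted p = 0.298, unadjusted p = 0.00249). The adjusted p was 7.17e-04 with DESeq2 and up to 0.691 over the alternatives. Across all alternatives the log2 fold change lay between -2.73 and -1.72, and the edgeR adjusted p was never under 0.05. The value nearest 0 came without EDC replicate 1 (-1.72, SE 0.40).

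Genes of embryonic and regenerating fibres lay on the same side as Sln. The 8 genes of that list, all tested, were all lower in click, with a median log2 fold change of -1.58, against 0.02 over all genes. Their summed level was 66.0 to 222 CPM in click and 237 to 1092 CPM in EDC. Myh3, the embryonic myosin, gave -1.84 (SE 0.46) and Myh8, the neonatal myosin, gave -2.76 (SE 1.06). Myod1, a transcription factor of muscle precursor cells, gave -0.80 (SE 0.32). Of the 8, 0 passed the edgeR adjusted threshold, 3 were under 0.05 unadjusted, and 3 were fully apart between the groups. Over all genes, 8% were lower at that unadjusted limit, 12.4% were apart on the lower side, and DESeq2 called 3.83% in either direction. Macrophage markers lay on that side too, with all 10 lower in click and summed levels of 138 to 1129 CPM in click and 1717 to 4099 CPM in EDC. Of these 10, 0 passed the edgeR adjusted threshold, 7 were under 0.05 unadjusted, 9 were fully apart, and DESeq2 called 6. Fibroblast markers were lower in click for all 6, of which 5 were fully apart and 1 was called by DESeq2. All 6 neutrophil markers were lower too (median -4.04), with 2 fully apart and 3 called by DESeq2. Their sums were 6.20 to 12.9 CPM in click and 147, 10.8 and 169 CPM in EDC replicates 1, 2 and 3. EDC replicate 2 thus lay within the click range. With library totals the developmental, macrophage, fibroblast and neutrophil genes were again all lower in click. The part of these cells and fibres in the Sln difference was not tested.

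The libraries did not rank alike for Sln and for the developmental genes. EDC replicate 1 was highest and click replicate 2 lowest in both. EDC replicate 3 had the second highest developmental sum, 536 CPM, and the lowest Sln of its group. Sln reached 712 per 1000 of the developmental sum in EDC replicate 2, 290 in EDC replicate 1 and 184 in EDC replicate 3. In click it was 377, 379 and 189 per 1000 in replicates 1 to 3, so this ratio overlapped between the groups. The genes whose profile over the 6 libraries lay nearest to that of Sln, by root mean square distance of centred log2 CPM among 11174 genes, were Mt2, a metallothionein, at 0.39 log2 units, the complement receptor C5ar1 at 0.41, and Tril, a toll-like receptor partner, at 0.42.

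**Figure D2:**
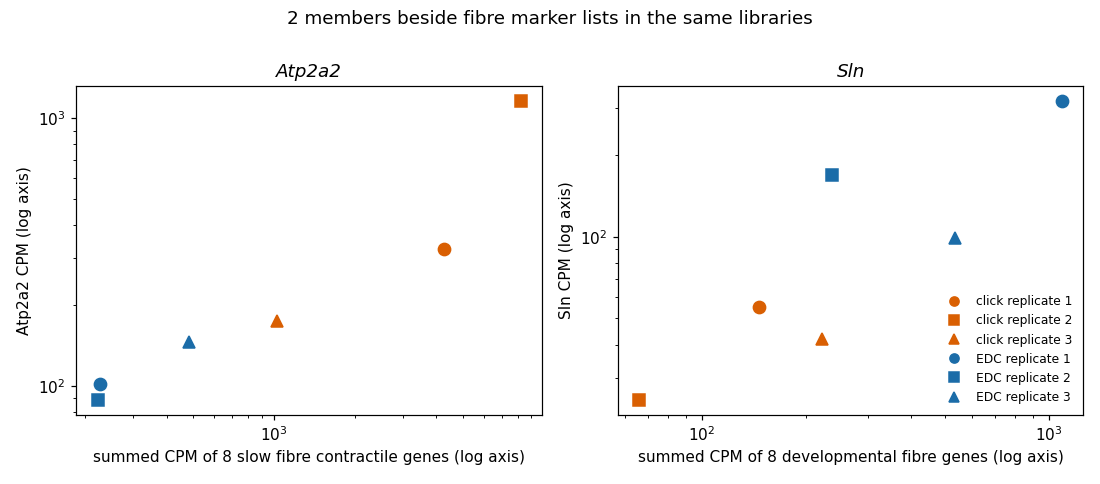
Left, Atp2a2 against the summed level of 8 slow fibre contractile genes; right, Sln against the summed level of 8 developmental fibre genes, both in CPM on log axes with 1 marker for each library. Click replicate 2 is the highest library for both Atp2a2 and the slow fibre sum, and EDC replicate 2 has a high Sln level for its developmental sum.

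Phospholamban lay on the other side. Its counts were low: click replicates 1, 2 and 3 held 73, 88 and 61 reads, and EDC replicates 1, 2 and 3 held 63, 35 and 15. The exact Poisson 95% interval of the lowest count, 15 reads, is 8.40 to 24.7, and that of the highest, 88 reads, is 70.6 to 108. These intervals cover counting error alone. Levels were 2.64, 3.20 and 1.54 CPM in click and 1.44, 0.97 and 0.30 CPM in EDC. With TMM factors the groups did not overlap, but click replicate 3 and EDC replicate 1 nearly touched, and with library totals the groups overlapped. Means were 2.46 ± 0.845 CPM for click and 0.903 ± 0.575 CPM for EDC (SD, n = 3). The log2 fold change was 1.45 with an SE of 0.62 (edgeR adjusted p = 0.329, unadjusted p = 0.0504). Its exons share 141 bases with Cep85l and 1644 bases with Gm47644, both on the opposite strand, and reads of the 3 genes cannot be told apart without strand. Cep85l, with the smaller overlap, stood at 19.5 ± 3.80 CPM with click and at 19.2 ± 2.28 CPM with EDC (log2 fold change 0.02, SE 0.21). That level does not cover reads from Gm47644, which has the larger overlap.

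Smooth muscle is another source of Pln, and the side on which its markers lay depended on the scaling. With TMM factors the summed level of 8 smooth muscle markers was 250 to 278 CPM in click and 173 to 219 CPM in EDC, with all 7 tested markers higher in click, although Acta2 (0.07, SE 0.23) and Smtn (0.08, SE 0.20) were near 0. With library totals 5 of the 7 were higher, and the sums overlapped, at 176 to 292 per 1000000 reads in click and 181 to 289 in EDC. With TMM factors Myh11, the smooth muscle myosin, gave 1.53 (SE 0.23), Cnn1, calponin 1, gave 1.89 (SE 0.65), and Tagln gave 0.79 (SE 0.30). Of the 7, 0 passed the edgeR adjusted threshold and 3 were under 0.05 unadjusted, and Myocd was at 0 to 11 reads. The part of smooth muscle in the Pln difference was not tested.

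The third pump regulator, Mrln, encodes myoregulin, which binds the pump in mouse skeletal muscle. Its level was 40.9, 26.9 and 19.7 CPM in click and 17.0, 20.1 and 9.36 CPM in EDC. Click replicate 3 lay just below EDC replicate 2, so the groups overlapped. The log2 fold change was 0.91 (SE 0.37, edgeR adjusted p = 0.315). Strit1, which encodes a pump activator, had no line in the table used here.

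Atp2a2, the pump of slow fibres and heart, was the member with the highest fold in click. Its level was 325, 1159 and 175 CPM in click replicates 1, 2 and 3. In EDC replicates 1, 2 and 3 it was 102, 88.7 and 146 CPM. Click replicate 2 stood far above the other 5 libraries, and click replicate 3 was close to EDC replicate 3. Means were 553 ± 530 CPM for click and 112 ± 30.0 CPM for EDC (SD, n = 3), or 4.93-fold. The log2 fold change was 2.30 with an SE of 0.69 (edgeR adjusted p = 0.298, unadjusted p = 0.0126). Without click replicate 2 the log2 fold change was 1.11 (SE 0.36), and it was the lowest of the alternatives, which reached up to 2.73. The adjusted p was 0.0152 with DESeq2 and up to 0.720 over the alternatives. With the mt-Atp6 class as a covariate, edgeR gave 2.36 (SE 0.49). Atp2a2 also encodes a form found in most cell types, and the counts per gene do not separate the forms.

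The slow fibre contractile genes were higher in click in all 8 of 8, with a median log2 fold change of 3.73 and no overlap between the groups in any of them. Of these 8, 0 passed the edgeR adjusted threshold, 8 were under 0.05 unadjusted, and DESeq2 called 8. Over all genes, 7.22% were higher at that unadjusted limit, 9.84% were apart on the higher side, and DESeq2 called 3.83% in either direction. Their summed level was 4280, 8213 and 1028 CPM in click and 226, 222 and 486 CPM in EDC. Click replicate 2 was thus the highest library for these genes as for Atp2a2, and EDC replicate 3 the highest of its group in both. Tnnc1, the slow troponin C, gave 3.93 (SE 0.79), Tpm3, the slow tropomyosin, gave 2.98 (SE 0.65), and Tnnt1, the slow troponin T, gave 3.54 (SE 0.79). Atp2a2 stood at 75.8, 141 and 170 CPM per 1000 CPM of these genes in click and at 451, 400 and 301 in EDC. The pump thus differed by less than the contractile sum, a ratio that was not tested. The gene with the nearest profile to Atp2a2 was Myoz2, a slow fibre Z-disc protein of that list, at a distance of 0.29 log2 units, followed by the mitochondrial transfer RNA genes mt-Tl1 at 0.50 and mt-Tr at 0.51.

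Casq2, the calsequestrin of heart and slow fibres, did not go the way of Atp2a2. Its level was 58.8, 92.7 and 61.7 CPM in click and 92.7, 66.6 and 89.5 CPM in EDC. The 2 groups covered nearly the same range. Means were 71.1 ± 18.8 CPM for click and 82.9 ± 14.2 CPM for EDC (SD, n = 3). The log2 fold change was -0.22 with an SE of 0.25 (edgeR adjusted p = 0.662). The value was negative in each alternative run, from -0.74 with library totals alone to -0.02 without the libraries with Xist reads, and in none was the adjusted p under 0.05.

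The fast forms overlapped between the groups, and none had an unadjusted edgeR p under 0.05. Atp2a1, the fast pump, stood at 19587, 20554 and 14560 CPM in click and at 16058, 18259 and 12343 CPM in EDC (log2 fold change 0.23, SE 0.31, edgeR adjusted p = 0.723). It held the 10th highest read count of all genes. Casq1, the fast calsequestrin, stood at 5231, 5820 and 4288 CPM in click and at 3536, 5614 and 3187 CPM in EDC (0.31, SE 0.32, edgeR adjusted p = 0.626). For both genes replicate 3 was the lowest library of its group, and the groups overlapped. Parvalbumin, which takes up calcium in the cytosol of fast fibres, stood at 21655, 18607 and 13780 CPM in click and at 11719, 16804 and 7988 CPM in EDC (0.57, SE 0.37, edgeR adjusted p = 0.467). EDC replicate 2 lay above click replicate 3, and EDC replicate 3 was the lowest library. Of 9 fast fibre contractile genes, 8 were higher in click with TMM factors (median log2 fold change 0.55), and 0 were under 0.05 unadjusted in edgeR. With library totals 5 of the 9 were higher (median 0.05).

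The release machinery and sarcalumenin behaved like the fast forms. Ryr1, the release channel, stood at 1445, 1794 and 1202 CPM in click and at 1333, 1022 and 870 CPM in EDC (log2 fold change 0.46, SE 0.28, edgeR adjusted p = 0.429). Cacna1s, the voltage sensor, stood at 727, 778 and 501 CPM in click and at 479, 586 and 387 CPM in EDC (0.47, SE 0.27, edgeR adjusted p = 0.420). Srl, which encodes sarcalumenin, a calcium-binding protein of the reticulum lumen, stood at 1120, 1719 and 1216 CPM in click and at 695, 1329 and 764 CPM in EDC (0.54, SE 0.34, edgeR adjusted p = 0.442). In each of these 3 genes at least 1 EDC library lay above the lowest click library. Exon bases shared with genes on the opposite strand numbered 763 for Ryr1 (Gm26604), 1212 for Cacna1s (Gm37759), 156 for Casq1 (Gm17224) and 83 for Atp2a2 (Gm43361), and the strand setting of the counts is not known.

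The sign of 4 of these values depended on the scaling. With library totals in place of TMM factors the median of all genes moved from 0.02 to -0.45, and the log2 fold change became -0.27 for Atp2a1, -0.16 for Casq1, -0.05 for Ryr1 and -0.04 for Cacna1s. Each of these lay above the shifted median. Pvalb and Srl then stood at 0.08 and 0.09. Sln (-2.73), Atp2a2 (1.68), Pln (0.93) and Casq2 (-0.74) had the same sign under both scalings. No direction can therefore be given for the fast pump, fast calsequestrin, release channel or voltage sensor from their CPM. For Atp2a2 and Pln the sign held, but with library totals the groups overlapped. Atp2a2 had 6908 of 36086701 reads in click replicate 3 and 7332 of 38094826 in EDC replicate 3. Pln had 61 of 36086701 reads in click replicate 3 and 63 of 36088456 in EDC replicate 1.

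**Figure D3:**
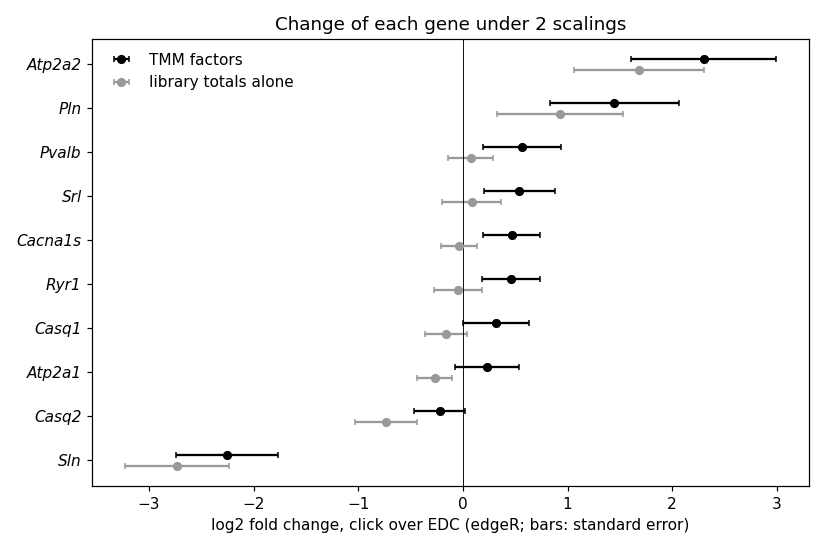
Log2 fold change of click over EDC for the 10 genes with TMM factors (black) and with library totals alone (grey); bars are standard errors of the edgeR fit. Sln and Atp2a2 lie at -2.26 and 2.30 with TMM factors, and Atp2a1, Casq1, Ryr1 and Cacna1s change sign between the scalings.

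To set the genes against fibre RNA alone, their reads were divided by the summed reads of 8 structural and metabolic genes of all muscle fibres, among them Acta1, Ckm and Ttn, which does not depend on a scaling factor. With TMM factors these 8 genes had a positive log2 fold change (median 0.55) and 5 were fully apart between the groups. Over all genes, 9.84% were apart on the higher side. With library totals 6 of the 8 were positive (median 0.05), and their summed share of reads overlapped, at 5.35% to 6.44% in click and 4.77% to 6.27% in EDC. As log2 reads per 1000000 fibre reads, Atp2a1 stood at 17.97, 17.91 and 17.98 in click and at 18.24, 18.33 and 18.38 in EDC. Against this sum the fast pump was thus lower in every click library, by a log2 difference of -0.36 that exceeded the spread within either group (SD 0.04 in click and 0.07 in EDC, n = 3). The exact two-sided permutation p was 0.1, the smallest that 3 against 3 libraries allow, and 0.367 adjusted over the 11 genes set against fibre reads, which are the 10 members and Mrln. With 9 fast fibre contractile genes as the denominator the difference was -0.21 (exact p = 0.1). In click replicate 1, Acta1 and Ckm held 994852 and 620808 of the 2100480 reads of the 8 genes. Des, another of the 8, gave a log2 fold change of 0.15 (SE 0.26) with TMM factors, below the 0.23 of Atp2a1. Against Des alone the pump was thus not lower in click. The other genes of the 8 had larger values than Atp2a1, so the difference depends on the denominator. Atp2a1 shares 763 exon bases with Rabep2 on the opposite strand, which stood at 374 ± 48.5 CPM with click and at 341 ± 45.9 CPM with EDC.

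Sln and Casq2 were also lower per fibre read in all 3 click libraries. The denominator genes were higher in click with TMM factors, so a gene with equal CPM in both groups is lower per fibre read. The share of all genes apart on this scale was not computed. Sln differed by -2.76 (exact p = 0.1, adjusted 0.367) and Casq2 by -0.83 (exact p = 0.1, adjusted 0.367). Casq2 values were 9.60, 10.11 and 10.10 in click and 10.81, 10.23 and 11.27 in EDC, so click replicate 2 and EDC replicate 2 lay near each other. With the fast fibre genes as the denominator the Casq2 difference was -0.68 and no longer at the smallest p (exact p = 0.3). Atp2a2 differed by 1.29 and Pln by 1.06 (exact p = 0.2 each), and both overlapped, because click replicate 3 fell below EDC replicate 3 for Atp2a2 (11.61 and 11.98) and just below EDC replicate 1 for Pln. The differences were -0.25 for Casq1, -0.13 for Ryr1, -0.13 for Cacna1s, -0.02 for Srl and 0.01 for Pvalb, all with overlapping groups and exact p of 0.3 or more.

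Ratios between the genes within a library set slow forms against fast forms and inhibitors against pumps, and 8 of them were compared. Sln had 2.77, 1.15 and 2.85 reads per 1000 reads of both pumps in click and 19.6, 9.18 and 7.90 in EDC. The highest click value was thus well below the lowest EDC value. The log2 ratio differed by -2.43, 5.39-fold more Sln per pump in EDC (exact two-sided permutation p = 0.1, adjusted p = 0.267). Pln had 8.14, 2.77 and 8.83 reads per 1000 reads of Atp2a2 in click and 14.2, 10.9 and 2.05 in EDC, which overlapped (-0.22, exact p = 0.8). The ratio of Sln to Pln differed by -3.83 on the log2 scale, with no overlap (exact p = 0.1, adjusted p = 0.267).

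Atp2a2 had 16.6, 56.4 and 12.01 reads per 1000 reads of Atp2a1 in click and 6.35, 4.86 and 11.8 in EDC. The groups did not overlap, but click replicate 3 and EDC replicate 3 were almost equal. The log2 ratio differed by 1.65 (exact p = 0.1, adjusted p = 0.267), and by 0.98 without click replicate 2. Casq2 had 11.2, 15.9 and 14.4 reads per 1000 reads of Casq1 in click and 26.2, 11.9 and 28.1 in EDC. EDC replicate 2 lay among the click libraries, and the log2 difference of -0.59 had an exact p of 0.3.

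**Figure D4:**
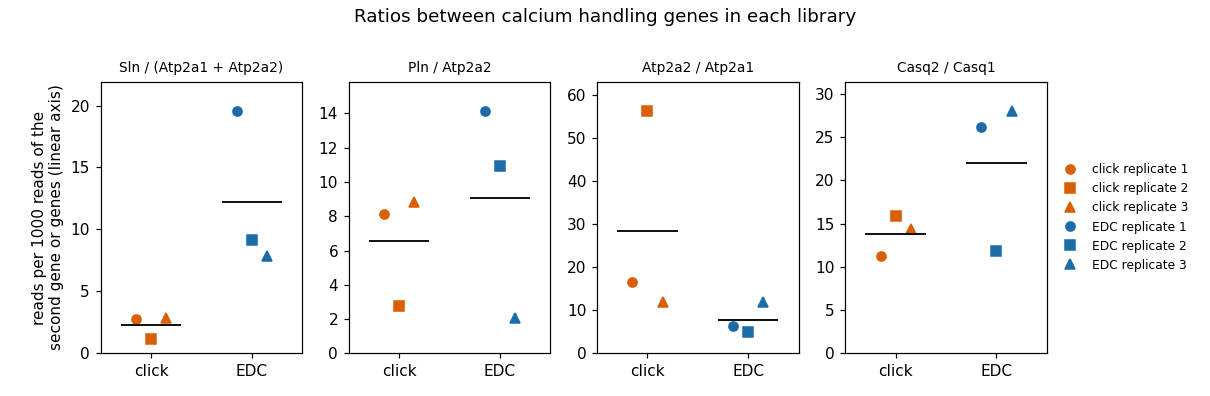
Reads of a gene per 1000 reads of its partner gene or genes in each library, on linear axes that start at 0, with a line at the group mean. Sln per pump read is 1.15 to 2.85 in click and 7.90 to 19.6 in EDC, and Pln per Atp2a2 read overlaps between the groups.

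The other 3 ratios overlapped between the groups. Pvalb to Atp2a1 differed by 0.37 on the log2 scale (exact p = 0.2), Srl to Casq1 by 0.23 (exact p = 0.3), and Ryr1 to Cacna1s by 0.00 (exact p = 1). The Ryr1 to Cacna1s log2 ratio was 1.15 ± 0.144 in click and 1.15 ± 0.337 in EDC (SD, n = 3). With each library left out in turn, its difference lay between -0.17 and 0.17.

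Per kilobase of exon, the order of the 10 genes was led by Pvalb, Atp2a1 and Casq1 in both groups. In EDC, Pvalb stood at 11691 ± 4251, Atp2a1 at 4473 ± 860 and Casq1 at 2226 ± 711 CPM per kilobase (SD, n = 3). Srl came next at 185 ± 69.4, followed by Sln at 148 ± 84.4, and these neighbours did not differ beyond their spread. Cacna1s at 75.5 ± 15.5 and Ryr1 at 69.6 ± 15.3 did not either. Casq2 stood at 32.3 ± 5.54, Atp2a2 at 21.3 ± 5.68 and Pln, the lowest, at 0.327 ± 0.208 CPM per kilobase. In click, Atp2a2 took the fifth place at 105 ± 100.5 CPM per kilobase, within the spread of Cacna1s at 104 ± 23.0 and Ryr1 at 95.8 ± 19.3, and Sln took the eighth at 30.9 ± 11.5, within the spread of Casq2 at 27.7 ± 7.32. The slow form made up 0.319% to 0.773% of both pumps per kilobase in EDC and 0.785% to 3.58% in click. Exon lengths are those of all basic transcripts of a gene, so a gene with long alternative ends has a lower value.

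Other genes of calcium handling were read from the same fit by role, with TMM factors, under which 8102 of all 15797 genes had a positive log2 fold change. With library totals most of these counts shifted to the lower side, as all genes did: 6 of 15 triad genes were positive (median -0.09), as were 1 of 4 release channels, 3 of 5 pumps and exchangers, 0 of 5 store entry genes, 1 of 7 mitochondrial uptake genes and 5 of 14 calmodulin, calcineurin and kinase genes. The directions of these lists are therefore those of 1 scaling. Of 15 other triad genes, 12 were higher and 3 lower in click, with a median log2 fold change of 0.40, and 0 were under 0.05 unadjusted in edgeR. The smallest p were those of Cacna2d1, a subunit of the voltage sensor, at 1.72 (SE 0.75), Jsrp1 at 0.61 (SE 0.27) and Jph1, a junctophilin that joins the membranes, at 0.67 (SE 0.30). Cacna2d1 stood at 50.2, 119 and 305 CPM in click and at 19.7, 85.1 and 38.7 CPM in EDC, and so differed as much within click as between the groups. Stac3, an adaptor of the voltage sensor, was the 1 triad gene of the 15 whose groups did not overlap with TMM factors. It stood at 216 ± 29.8 CPM for click and 158 ± 31.7 CPM for EDC (SD, n = 3). Over all genes, 9.84% were apart on the higher side. With library totals the groups overlapped for Stac3, which had 5863 of 35689994 reads in click replicate 2 and 7402 of 36088456 in EDC replicate 1.

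Of 4 tested release channels other than Ryr1, Itpr1, an inositol trisphosphate receptor, gave 0.99 (SE 0.36), Ryr3 gave -0.89 (SE 0.90) and Itpr3 gave 0.28 (SE 0.54). Of 5 other pumps and exchangers, 4 were higher, and Atp2a3 gave 1.14 (SE 0.48), Atp2b4 gave 1.09 (SE 0.58) and Atp2b1 gave -0.73 (SE 0.56). For store-operated entry, 2 of 5 genes were higher, with Orai1 at 0.27 (SE 0.46), Stim1 at 0.18 (SE 0.34) and Orai2 at -0.13 (SE 0.63). Of these 3 lists, 0 genes passed the edgeR adjusted threshold, and Itpr1 and Atp2a3 were under 0.05 unadjusted.

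Of 7 genes of mitochondrial calcium uptake, 6 were higher and Mcub, an inhibitory subunit of the uniporter, was lower. Mcub stood at 2.43, 0.66 and 2.20 CPM in click and at 6.50, 4.68 and 8.68 CPM in EDC. All 3 click libraries were below every EDC library, and the log2 fold change was -1.91 with an SE of 0.52 (edgeR adjusted p = 0.298), whereas DESeq2 called the gene (adjusted p = 0.0184). Micu3 gave 0.81 (SE 0.37) and Smdt1 gave 0.30 (SE 0.20). Of 14 genes of calmodulin, calcineurin and calmodulin-dependent kinase II, 8 were higher and 6 lower, with a median of 0.15. Camk2a, a kinase subunit, stood at 42.6 ± 8.37 CPM for click and 24.6 ± 1.80 CPM for EDC (SD, n = 3), with no overlap with TMM factors (0.79, SE 0.20, edgeR adjusted p = 0.298). DESeq2 gave it an adjusted p of 0.0356. With library totals its groups overlapped, at 920 of 39305779 reads in click replicate 1 and 1255 of 38094826 in EDC replicate 3. Of the 14 genes, 3 were apart on the higher side with TMM factors. Over all genes, 9.84% were apart on that side and 12.4% on the lower, and DESeq2 called 3.83%. Ppp3r1, the calcineurin regulatory subunit, gave 0.53 (SE 0.23) and Calm3 gave 0.54 (SE 0.23).

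**Figure D5:**
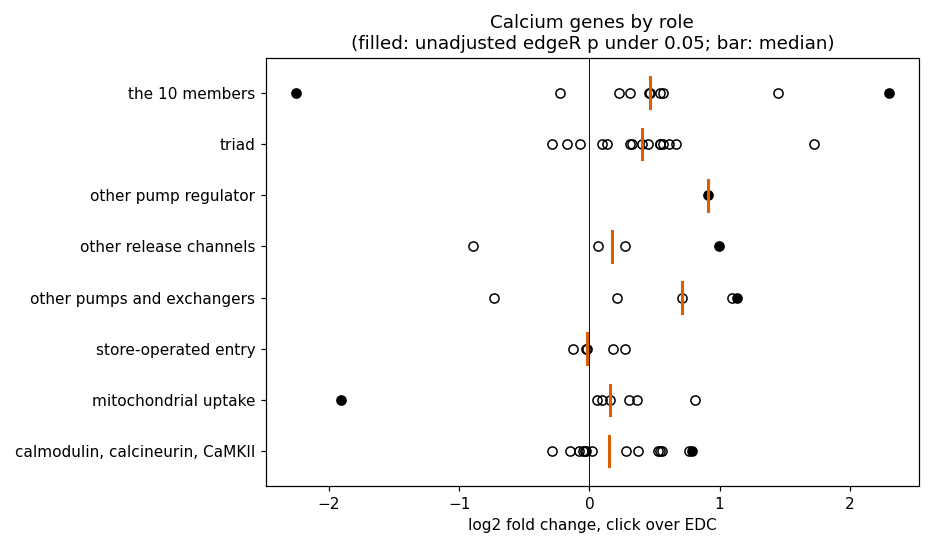
Log2 fold change of click over EDC for each tested gene, in rows by role; filled points have an unadjusted edgeR p under 0.05 and the bar is the median of the row. The 10 members have a median of 0.46 and span -2.26 to 2.30, and no gene shown passed the adjusted threshold of edgeR, whereas DESeq2 called Sln, Atp2a2, Mcub and Camk2a.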

How the data were processed

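RNA of mouse muscle was sequenced in 6 libraries, 3 per agent. The authors deposited 1 table of raw whole-number read counts, with a row for each gene and a column for each library. Reads were placed on mm10 according to the submitters' processing notes. Which aligner, counter and annotation they used, and whether strand was counted, is not given in the sources used here. Of 55335 lines, 3225 had no gene symbol (0.0631% to 0.0996% of reads) and were left out. For 80 repeated symbols the line with more reads was used. The table had 0 columns without a sample.

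Groups and replicate numbers come from the titles. Each library was treated as a separate mouse, as the series design gives 3 per group. No 2 libraries agreed within sampling noise, since their counts differed by at least 61.8 times the sampling variance. That lowest value was between click replicate 3 and EDC replicate 2, which belong to different groups. By the same measure click replicate 3 differed by 196 and 190 from click replicates 1 and 2. From EDC replicates 1 and 3 it differed by 127 and 197. The main test was the quasi-likelihood test of edgeR 4.0.16 in R 4.3.3, with TMM factors, the default filter by group and a Benjamini-Hochberg threshold of 0.05. Standard errors were taken as the fold change (log2) over the root of F. Alternatives used DESeq2 1.42.0, limma 3.58.1 (voom), other factors and filters, a covariate, a block, and libraries left out. The scripts were tested on simulated data. Ratios and levels per fibre read used exact two-sided permutation tests. Coordinates and exon lengths come from GENCODE M21.

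The 10 genes, the lists and the tests were chosen with earlier results of these data known. Named besides the 10 are the 3 genes of each list with the smallest p and the 3 genes nearest to Sln, Atp2a2 and Atp2a1 in profile. Chosen after their values were seen were Stac3, Cep85l, Rabep2, Gm47644 and other opposite-strand genes, Ryr2 and heart markers with few reads, and Atp2a2 per slow fibre level and Sln per developmental level. Some genes of the lists are not reported here by name.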

Additional observations from a re-analysis of the deposited data

How the results depend on the processing

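The number of genes that passed over the whole table was 1 by edgeR, 605 by DESeq2 (2988 at an unadjusted p under 0.05) and 0 by limma-voom (2602). It was 0 (1676) when the fit held the mt-Atp6 class, a ratio of mt-Atp6 to Gm10925 reads above or below 0.5. It was 0 without the libraries with Xist reads (1109) and 0 to 7 with each library left out in turn. With the replicate number as a block it was 0 (3673, against 2404 in the main fit), and Sln gave -2.17, Atp2a2 1.86 and Pln 1.63. The deviations of same-numbered libraries correlated by -0.05, 0.19 and 0.28, and those of differently numbered libraries by -0.30 to 0.09. So few values cannot decide whether the numbers pair the mice. The labels do not say that they do, and the main test was unpaired. The mean differences of the ratios are the same with and without pairing. Of 240 recomputed values of single members, 15 changed sign. With library totals these were Atp2a1 (-0.27), Casq1 (-0.16), Ryr1 (-0.046) and Cacna1s (-0.041), and with fast fibre genes as the denominator Cacna1s per fibre read (0.017). The other 10 were values of Ryr1, Pvalb and Srl per fibre read, all near 0 and within the spread between replicates. The cause was not tested. The lists were also read with library totals, an alternative chosen after seeing the data. With each library left out in turn, the log2 fold change lay between -2.58 and -1.72 for Sln, 1.11 and 2.73 for Atp2a2, and 1.02 and 1.96 for Pln. For no member did the edgeR adjusted p fall under 0.05 in any setting, and DESeq2 gave the 2 calls named above. The ratios moved by less than the spread between replicates in every alternative run, although Pln to Atp2a2 ranged from -1.09 to 0.32. With 3 libraries per group, exact tests cannot give a p under 0.1, and the depth of Pln, 15 to 88 reads, limits its precision.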

Other observations

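Profiles near that of the fast pump were much closer than those near Sln or Atp2a2. The distance is not scaled for amplitude, so a gene that varies little between libraries tends to have nearer neighbours. Lcmt1, a methyltransferase, lay 0.03 log2 units from Atp2a1 over the 6 libraries, and Alkbh3 and Sgta each lay 0.04 away. Lcmt1 stood at 24.1, 26.1 and 19.0 CPM in click and 19.8, 22.8 and 15.7 CPM in EDC, with the same order of libraries within each group as Atp2a1. None of these 3 genes encodes a known calcium handling protein of muscle.

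Among heart markers, Myh6, the alpha myosin heavy chain, followed the slow fibre genes. It had 376, 738 and 171 reads in click and 20, 85 and 88 in EDC, and its log2 fold change was 3.30 with an SE of 0.81 (edgeR adjusted p = 0.298). Tnnt2, a troponin T of heart and developing muscle, went the other way at -1.44 (SE 0.59, edgeR adjusted p = 0.320), and Tnni3 gave -1.03 (SE 0.60).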
